A study of Saccharomyces cerevisiae with 12 samples.

Results

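The 58 genes RPL1A to RPL33B encode proteins of the large subunit of the yeast cytosolic ribosome. They were taken by identifier and not by a measured value, though with earlier results of these data known. All 58 were found among the 10891 features of the deposited table. They form 33 families, 25 with an A and a B copy and 8 with a single gene (RPL3, RPL5, RPL10, RPL25, RPL28, RPL29, RPL30 and RPL32). The study sequenced total RNA, depleted of ribosomal RNA, by strand from Saccharomyces cerevisiae BY4741 and from strains labelled as deleted for an RNA helicase gene. All strains are MATa his3Δ1 leu2Δ0 met15Δ0. WT is ura3Δ0, and the 5 deletion strains are labelled ura3Δ and carry ecm32, slh1, ski2, dbp1 or dhh1 replaced by kanMX4. Cells were harvested in mid-log phase, at an OD600 of 0.5 in YPD at 30 °C, and 50 ng of depleted RNA went into each TruSeq Stranded mRNA library. Each strain has 2 libraries, which the series describes as biological replicates; whether a strain was a single clone is not given in the sources used here.

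The large subunit holds the peptidyl transferase centre, where the peptide bond is formed, and the tunnel through which the new protein leaves. Its proteins bind the ribosomal RNA in a set order during assembly in the nucleolus, nucleus and cytoplasm. Most of their genes were kept in duplicate after an ancient whole-genome duplication, so that a pair of genes encodes the same or nearly the same protein. In budding yeast most of their promoters are bound by Rap1 with Fhl1 and Ifh1, and a few by Abf1 instead. Many of the genes carry an intron, although introns are rare in yeast. Dhh1 acts in mRNA decapping and translational repression, Ski2 is the helicase of the Ski complex that feeds the cytoplasmic exosome, Slh1 acts in ribosome quality control, Ecm32 has been linked to translation termination, and Dbp1 is a relative of the initiation helicase Ded1.

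Depth was 8.79 to 17.66 M reads per library, with a median of 14.48 M. ECM32, SLH1 and DHH1 stood at 0.319%, 0.0283% and 2.17% of their WT density in the strains deleted for them. The remaining strains went against their labels. For the ski2-delta-labelled libraries, SKI2 was present (146% of WT) and DBP1 all but missing (3.68%). For the dbp1-delta-labelled ones DBP1 was present (150%) and SKI2 all but missing (0.110%). Each library did so, and these labels serve below only as names. The deposited values are densities, reads per counted nucleotide divided by a library factor that matches one from the snoRNAs. Factors from protein-coding genes or from spike-ins move every density of a library together. A ratio between genes of the same library does not change.

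The RPL genes were among the most abundant mRNAs of these cells. In WT, 25 of them ranked among the top 100 and 48 among the top 200 of 5916 protein-coding genes by density. Together they took 8.01 and 8.11% of endogenous reads in the WT libraries and 7.07 and 7.42% in dhh1-delta, the lowest of the 6 strains. In ecm32-delta the shares were 8.53 and 8.42%, in slh1-delta 8.01 and 8.66%, in the ski2-delta-labelled libraries 7.69 and 7.82%, and in the dbp1-delta-labelled ones 7.76 and 7.80%. The dhh1-delta libraries did not overlap those of any other strain. These are shares of a fixed total, in which other RNA can also move, and in bulk samples fewer cells with an RNA and less RNA per cell cannot be told apart.

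The 10 highest members in WT came from several positions in the subunit. The deposited density counts the whole gene, and 37 of the 58 genes have a coding intron of 147 to 927 nucleotides, so their density per mRNA nucleotide is understated. RPL10, which joins the pre-subunit last and reaches the peptidyl transferase centre, had the highest deposited density, 47.8 and 61.2 in WT (mean 54.5 ± 9.47 SD, n = 2). RPL3, which contacts the same centre, followed at 45.9 and 57.7. RPL15A, an early-binding protein of the subunit's interior, stood at 42.1 and 47.2, and RPL5, the protein that escorts the 5S rRNA, at 36.5 and 45.4. RPL2B, RPL32, RPL28, RPL30 and RPL12B were also among the 10 highest, with means of 30.6, 27.9, 27.9, 26.9 and 26.7. The WT ranges of neighbours among these genes overlapped, except between RPL5 and RPL2B, so that most of the order is not fixed by 2 libraries.

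Leaving the coding intron out of the length moved the intron genes up. RPL28, the cycloheximide-resistance locus of yeast, then stood at 52.1 in WT, next to RPL10 at 54.5 and RPL3 at 51.8. RPL25, the docking site at the tunnel exit for factors that meet the new chain, rose in the order from a deposited mean of 24.2 to 42.8. RPL30, whose protein represses splicing of its own transcript, stood at 39.5. RPL29, a small protein that yeast can do without, was the lowest of the single-copy genes at 9.76 and 9.53. All other single-copy genes were above the median member.

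The lowest densities belonged to the B copies of pairs. RPL15B stood at 0.354 and 0.302 in WT, RPL22B at 1.13 and 1.38 and RPL7B at 1.58 and 1.90. RPL18B had 3.17 and 3.87 and RPL31B 3.60 and 3.92. RPL15B, RPL22B, RPL7B and RPL31B were below their A copies in all 12 libraries. RPL15B had the fewest reads of any member, 190 in its lowest library, and the highest member reached 94215.

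**Figure D1:**
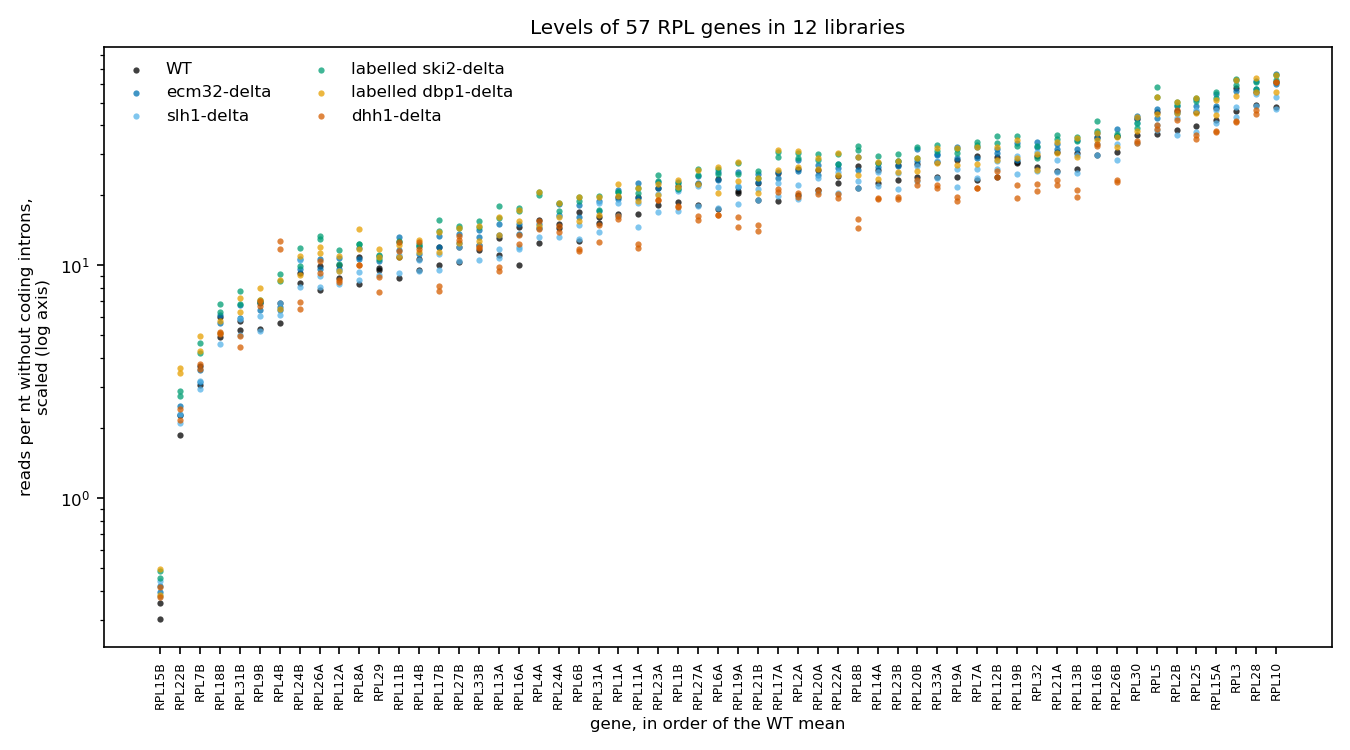
Density of 57 of the RPL genes without coding introns (scaled reads per nucleotide, log axis) in the 12 libraries, 1 dot per library coloured by strain, genes in order of the WT mean. RPL10 leads at a WT mean of 54.5 and RPL15B is lowest at 0.328, and the strains lie close together at most genes.

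Members of a pair were rarely expressed alike. As log2 of the A density over the B density, the ratio ran from -1.76 for RPL26 to 7.07 for RPL15 in WT, and A was the higher copy in 15 of the 25 pairs in both WT libraries. RPL15A exceeded RPL15B by a ratio of 6.87 and 7.26 on this scale, 134-fold on average. RPL22, dispensable for growth, whose protein represses splicing of RPL22B, had ratios of 3.53 and 3.34. RPL7 stood at 2.76 and 2.84 and RPL9 at 2.18 and 2.04. In these 4 pairs A was far above B in every library of every strain.

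At the other end, 5 pairs were close to even. RPL20 had ratios of -0.21 and -0.12 in WT and RPL1, which forms the mobile stalk at the tRNA exit side, -0.17 and -0.16. RPL6 stood at 0.26 and 0.28, RPL21 at 0.31 and 0.34 and RPL23, a protein of the subunit interface, at -0.45 and -0.43. For RPL20 the order turned in 1 of the 12 libraries, a dbp1-delta-labelled library; in the other 4 pairs the same copy was higher in all 12. With the coding intron taken out of the counted length, RPL31 moved from 2.10-fold to 2.83-fold and RPL6 from 0.27 to 0.47 on the log2 scale, where RPL19 (-0.42) was the more even pair. RPL22 then stood at 11.3-fold against 10.8-fold as deposited and RPL7 at 7.75-fold against 6.97-fold. Genes for the snoRNAs SNR39 and SNR59 lie in introns of RPL7A and RPL7B, and whether their reads were counted to the host gene is not given in the sources used here.

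In 18 of the 25 pairs the copies share 50-base words, so that a read of that length can match both. Their coding sequences are 78.9 to 99.4% identical with a median of 93.7%. Of all 50-base words in the exons, 81.0% occur elsewhere in the genome for RPL1, 72.7% for RPL4, 62.3% for RPL7, 60.9% for RPL11 and 48.6% for RPL14, against 6.93% for RPL8 and 7.28% for RPL26. In 22 members, which include the 8 single-copy genes, every such word was unique. How reads with several matches were counted is not given in the sources used here, so the values of the single copies are uncertain for the pairs that share the most.

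Upstream of the gene the copies differ, as the windows of RPL4 and RPL8 show. These pairs are printed because the balance of their copies changed in dhh1-delta. RPL4 sends a long extension into the wall of the exit tunnel, and RPL8 is an early-binding shell protein. RPL4A (YBR031W, chromosome II, 300166 to 301254, plus strand) and RPL4B (YDR012W, chromosome IV, 471853 to 472941, plus strand) have no intron, nor have RPL8A (YHL033C, chromosome VIII, 35255 to 36025, minus strand) and RPL8B (YLL045C, chromosome XII, 47859 to 48629, minus strand). The windows run from 400 to 101 bases before the start codon in build R64, read 5′ to 3′ on the gene's strand, with Rap1-type (ACCCNNACA) and Abf1-type (TCA and ACG with any 6 bases between) matches on either strand in capitals.
RPL4A (chrII:299766-300065, plus strand): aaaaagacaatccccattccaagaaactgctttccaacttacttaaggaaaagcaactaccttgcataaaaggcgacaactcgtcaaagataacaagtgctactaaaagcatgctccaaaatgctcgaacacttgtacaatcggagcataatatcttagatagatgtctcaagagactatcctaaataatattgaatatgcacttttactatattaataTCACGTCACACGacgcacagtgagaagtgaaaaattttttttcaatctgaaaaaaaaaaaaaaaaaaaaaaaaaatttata
RPL4B (chrIV:471453-471752, plus strand): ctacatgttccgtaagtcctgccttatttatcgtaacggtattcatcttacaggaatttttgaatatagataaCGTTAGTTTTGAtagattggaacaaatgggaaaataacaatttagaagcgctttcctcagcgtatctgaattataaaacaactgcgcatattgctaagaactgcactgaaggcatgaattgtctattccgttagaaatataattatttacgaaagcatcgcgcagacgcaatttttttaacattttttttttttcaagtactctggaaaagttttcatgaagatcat
RPL8A (chrVIII:36126-36425, minus strand): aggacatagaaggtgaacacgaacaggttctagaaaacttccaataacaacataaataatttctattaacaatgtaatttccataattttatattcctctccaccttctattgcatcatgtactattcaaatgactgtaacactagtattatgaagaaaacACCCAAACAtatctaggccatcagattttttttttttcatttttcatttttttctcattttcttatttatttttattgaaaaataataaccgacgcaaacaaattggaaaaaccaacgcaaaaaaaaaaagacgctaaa
RPL8B (chrXII:48730-49029, minus strand): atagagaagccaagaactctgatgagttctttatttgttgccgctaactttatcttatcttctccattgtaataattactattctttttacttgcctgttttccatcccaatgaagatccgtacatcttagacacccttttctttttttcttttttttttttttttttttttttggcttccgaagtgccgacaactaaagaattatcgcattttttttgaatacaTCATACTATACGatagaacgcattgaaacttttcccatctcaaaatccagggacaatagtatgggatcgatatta
Both RPL4 windows and that of RPL8B hold an Abf1-type match, and that of RPL8A a Rap1-type match. The RPL4A window overlaps the gene RKM3 and that of RPL8A the gene GUT1. Over the 58 genes the Rap1-type motif matched in 20 windows (34.5%), against 3.93% of 6001 windows of all protein-coding genes, and the Abf1-type motif in 8 (13.8%) against 17.2%. This spelling was chosen after its matches had been counted, as the third of 7 combinations of spelling and window tried. Over the 7, the share of members with a match ran from 15.5 to 44.8% and the share of all windows from 1.68 to 11.2%. Both copies held a match of the chosen spelling in 4 pairs, 1 copy in 10 and neither in 11. A match is only a run of letters, and the absence of one says nothing of the factor.

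No RPL gene passed the threshold in ecm32-delta or slh1-delta. In ecm32-delta 57 of the 58 genes had a fold change above 0, with a median of 0.20 on the log2 scale against 0.08 over all 9497 features tested, but limma-trend called none at an adjusted p under 0.05, where 0.0737% of all features were called. At an unadjusted p under 0.05 there were 2, and voom on the recovered reads called 0. The smallest p-values belonged to RPL11B (0.34, standard error 0.14, limma-trend adjusted p = 0.544), RPL15B (0.31) and RPL27B (0.23). RPL11B had densities of 8.80 and 10.9 in WT and 13.2 and 11.6 in ecm32-delta, which did not overlap. With protein-coding factors the median was 0.10 with 55 genes above 0, and with spike-in factors it was -0.06 with only 3 above 0. The members also moved together within a strain. In WT 54 of the 58 were higher in replicate 2 than in replicate 1, with a median difference of 0.25. In ecm32-delta 56 were lower in replicate 2 (median -0.12), and in slh1-delta all 58 were higher (median 0.20). Both ecm32-delta libraries lay above both of WT for 30 members, and for 24.3% of all features. In slh1-delta the median was -0.05 against -0.09 over all features, with 11 genes above 0, but 0.06 with 49 above 0 under protein-coding factors and -0.40 with 0 above 0 under spike-in factors. None was called where 0.0105% of features were, 1 had an unadjusted p under 0.05, and voom called 0. RPL15B came first there too (0.32, standard error 0.14, limma-trend adjusted p = 0.692), then RPL18B (-0.16) and RPL3 (-0.17). The RPL3 densities in slh1-delta, 43.5 and 47.9, overlapped those in WT. Both slh1-delta libraries lay above both of WT for 1 member (8.17% of features). All 5 comparisons with WT share its libraries.

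In the ski2-delta-labelled libraries, which held 2 and 4 DBP1 reads, 19 RPL genes were called higher and 0 lower, while 39.3% of all features were called higher and 0.737% lower. Both libraries lay above both of WT for 54 members (66.9% of features). The members' median was 0.30 and that of all features 0.39, and 44 of the 58 genes lay below the feature median. This turned with a pseudocount 10 times larger, where 39 lay above it, and with quantile normalization, where 33 did. The largest rises were those of RPL26A (0.58, standard error 0.13, limma-trend adjusted p = 0.011), RPL4A (0.54), RPL16A (0.53), RPL15B (0.52) and RPL4B (0.51). RPL26A, a protein at the tunnel exit, had densities of 4.80 and 6.06 in WT and 7.93 and 8.20 in these libraries. RPL4A had 12.5 and 15.7 in WT and 20.04 and 20.7 here. For both genes the groups did not overlap. With factors from protein-coding genes the members' median was -0.13 (all features -0.01) and none was called, with spike-in factors it was -0.46 (all features -0.33) and none was called, and the 5 named genes then lay below 0. The count was 0 without WT replicate 1, 31 without WT replicate 2, and 3 and 0 without the first and the second library of this label.

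In the dbp1-delta-labelled libraries, which held 2 and 1 SKI2 reads, 4 RPL genes were called higher and 0 lower, where 17.2% of features were called higher and 0.411% lower. They were RPL22B (0.77, standard error 0.12, limma-trend adjusted p = 0.00913), RPL7B (0.45), RPL8A (0.45) and RPL26A (0.41). RPL22B had densities of 1.13 and 1.38 in WT and 2.09 and 2.2 in these libraries, and 1.28 to 1.75 in the other 4 strains. Both libraries were thus above all 10 others. RPL7B stood at 1.58 and 1.90 in WT and 2.22 and 2.56 here. Both libraries lay above both of WT for 23 members (62.1% of features). The members' median was 0.20 against 0.33 over all features. With protein-coding factors it was -0.15 (all features 0.01) and 1 gene was called higher, RPL22B, and 1 lower, RPL18B, where 0.295 and 0.421% of features were called; with spike-in factors it was -0.35 (all features -0.19) and none was called, and RPL7B, RPL8A and RPL26A lay below 0. The count was 0 without WT replicate 1 or without the second library of this label, and 9 without WT replicate 2 or without the first.

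In dhh1-delta single RPL genes differed from WT in opposite directions on the deposited scale. RPL4B was called higher and 10 genes lower. The 10 were RPL8B, RPL11A, RPL26B, RPL21B, RPL17B, RPL13B, RPL9A, RPL19A, RPL19B and RPL23B, of which 7 are B copies and 3 A copies. With protein-coding factors 9 B and 10 A copies were lower and 4 B copies higher, so that no excess of B copies remained among the falls. Among all features 13.7% were called higher and 24.3% lower. The members' median was -0.19, against -0.20 over all features and -0.04 over the protein-coding ones; with a stricter filter on low values the median of all features was also -0.04. Both libraries lay above both of WT for 5 members (24.5% of all features) and below for 34 (47.6%). None of the 8 single-copy genes was called on the deposited scale, and RPL3 and RPL32 were called lower with protein-coding factors. On the deposited scale their changes ran from -0.37 for RPL32 (26.4 and 29.3 in WT, 20.8 and 22.3 in dhh1-delta) to 0.18 for RPL10.

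RPL4B carried the only rise called on the deposited scale. Its densities were 5.65 and 6.89 in WT, 12.7 and 11.8 in dhh1-delta and 6.11 to 9.16 in the 8 libraries of the other strains. The dhh1-delta values exceeded all 10 others, and the change from WT was 0.97 (standard error 0.14, limma-trend adjusted p = 0.000382), a 1.96-fold rise. RPL4A, 98.9% identical to it in coding sequence, had 12.5 and 15.7 in WT and 15.5 and 14.3 in dhh1-delta, which overlapped. RPL8B showed the largest fall: 21.6 and 26.6 in WT, 14.5 and 15.8 in dhh1-delta and 21.5 to 32.7 elsewhere, a change of -0.66 (standard error 0.14, limma-trend adjusted p = 0.00356). Again no other library reached the dhh1-delta range.

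RPL11A, which binds the 5S rRNA together with RPL5, had densities of 16.6 and 19.7 in WT and 11.9 and 12.4 in dhh1-delta, a change of -0.57 (standard error 0.14, limma-trend adjusted p = 0.00897). RPL26B, at the tunnel exit, had 16.9 and 19.9 in WT and 12.6 and 12.8 in dhh1-delta (-0.53, standard error 0.12, limma-trend adjusted p = 0.00579). RPL21B had 11.4 and 13.5 in WT and 8.38 and 8.91 in dhh1-delta (-0.52, standard error 0.13, limma-trend adjusted p = 0.00755). RPL17B, also at the tunnel exit, changed by -0.46 with an adjusted p of 0.019 in limma-trend. In these 4 genes the WT and dhh1-delta libraries were apart. The remaining 5 fell by 0.37 to 0.46 on the log2 scale: the shell protein gene RPL13B, RPL9A, the bridge protein genes RPL19A and RPL19B, and RPL23B.

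The falls were spread over positions in the subunit, and 24.3% of all features fell. Of 7 genes for bridges to the small subunit 3 fell, with a median change of -0.37, and of 7 at the exit tunnel 2 fell. Each family was counted in 1 group only. Of 21 genes of the shell and early assembly, RPL15 among them, 2 fell. Of 9 genes placed in no group (RPL9, RPL21, RPL22, RPL27 and RPL29) 2 fell, and of 3 genes of the 5S particle 1 fell. Of the 4 stalk genes (RPL1 and RPL12) none was called, with changes of -0.17 to -0.11. The 7 genes of the peptidyl transferase centre and core held the one rise, that of RPL4B, and their median was 0.07. RPL4 was counted there and not at the tunnel, although it reaches the tunnel wall. Genes with a coding intron fell in 7 of 37 cases and those without in 3 of 21. With protein-coding factors 28.9% of features fell. The falls then numbered 4 of 7 at bridges, 2 of 7 at the tunnel, 9 of 21 in the shell group and 4 of the 9 in no group. They were 1 of 3 in the 5S particle, 1 of 7 in the core and none in the stalks. Of the genes with a coding intron 14 of 37 fell, and of those without 7 of 21. These factors called 4 members higher, where 18.3% of features were. They lay 1 each in the core, the shell group, the 5S particle and the genes in no group.

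The calls for RPL4B, RPL8B and RPL26B held when any 1 of the 4 libraries was left out. RPL19A and RPL19B lost theirs in each of the 4 cases. RPL11A and RPL21B lost theirs without WT replicate 2 or dhh1-delta replicate 1, and RPL17B, RPL13B, RPL9A and RPL23B passed only without WT replicate 1. The number of members called was 17 without WT replicate 1, 6 without WT replicate 2 (4 higher, 2 lower), and 3 and 5 without the first and the second dhh1-delta library. Scaling also moved it: 4 higher and 21 lower with protein-coding factors (18.3 and 28.9% of features), 3 and 32 with quantile normalization (17.9 and 22.1% of features), none with spike-in factors, and 4 higher and 0 lower with spike-in factors and no WT replicate 1, where the members' median was 0.12. The share of members called lower was thus below that of all features on the deposited scale and above it with protein-coding factors or quantile normalization. Spike-ins took 1.22% of reads in WT replicate 1 and 1.72 to 2.69% in the other libraries.

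Comparisons of dhh1-delta with the other deletions do not use the WT libraries. RPL4B was higher in dhh1-delta than in ecm32-delta, slh1-delta and the ski2-delta- and dbp1-delta-labelled libraries, with log2 differences of those strains from dhh1-delta of -0.90, -0.91, -0.46 and -0.71 (adjusted p of 0.000585, 0.000719, 0.0162 and 0.00175 in limma-trend). RPL8B was lower in dhh1-delta than in each, with differences of 0.85, 0.56, 1.08 and 0.82 (adjusted p of 0.000717, 0.0121, 9.7e-05 and 0.000609). RPL26B, RPL11A and RPL21B also passed against all 4, and RPL17B against all but slh1-delta (adjusted p = 0.0564). Over all members 30, 8, 44 and 36 were called, and 40, 30.3, 58.9 and 56.6% of features. These 4 comparisons share the dhh1-delta libraries.

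**Figure D2:**
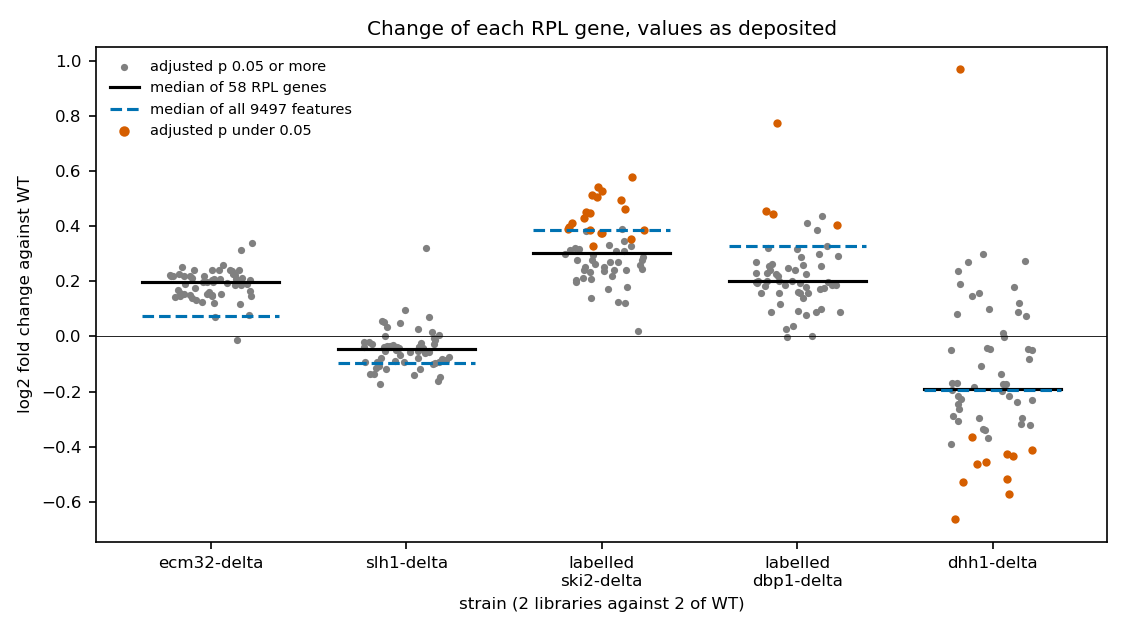
Log2 fold change against WT of each of the 58 RPL genes in the 5 strains, 1 dot per gene, orange where the adjusted p was under 0.05, on the deposited scale; the solid line is the median of the RPL genes and the dashed line that of all 9497 features. In dhh1-delta RPL4B stands apart at 0.97 and the genes spread from there down to -0.66 for RPL8B.

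The balance of A and B copies changed in many pairs in dhh1-delta. This ratio is taken within a library and does not depend on scaling. When the 25 ratios were added as rows to the table of all features, a test chosen after the data had been seen, 13 pairs differed between dhh1-delta and WT at an adjusted p under 0.05 in limma-trend over 9522 rows. In 5 the balance moved toward A and in 8 toward B. Among the pairs of the other ribosomal proteins 61.8% were called (21 of 34), no smaller a share. Of single features, 13.7% were called higher and 24.3% lower in this comparison as deposited. With protein-coding factors these shares were 18.3 and 28.9%. Ratios between unrelated genes were not tested, so the count is not shown to be particular to paralogs. In ecm32-delta and slh1-delta 0 of 25 were called, with 1 each at an unadjusted p under 0.05. In the ski2-delta-labelled libraries 1 was called and in the dbp1-delta-labelled ones 3, where 5.88% of the other pairs were called in each. For a single ratio, 2 libraries against 2 cannot give an exact two-sided permutation p below 2 in 6, so the p-values rest on the model.

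RPL4 changed most. Its log2 ratio of A to B was 1.14 and 1.19 in WT, 1.07 to 1.25 in the 8 other deletion libraries and 0.29 and 0.28 in dhh1-delta, a difference of -0.88 (standard error 0.09, limma-trend adjusted p = 2.9e-05). The A copy made up 69.2% of the summed density of the pair in WT and 54.9% in dhh1-delta. That sum was higher by 0.41 on the log2 scale, the highest of the 25 families. A raised sum was not confined to dhh1-delta. It was higher by 0.52 in the ski2-delta-labelled libraries and by 0.31 in the dbp1-delta-labelled ones, as deposited. There the A copy made up 69.7 and 70.1%. In ecm32-delta and slh1-delta the sum changed by 0.07 and -0.002. Sums of families leave coding introns out of the length, and the RPL4 genes have none. RPL11 had ratios of 0.91 and 0.86 in WT, 0.65 to 0.80 in the other deletions and 0.05 and -0.03 in dhh1-delta, where both copies stood level, a difference of -0.87 (standard error 0.09, limma-trend adjusted p = 4.3e-05). RPL11B did not pass on its own on the deposited scale (0.30, limma-trend adjusted p = 0.102), with 8.80 and 10.9 in WT and 11.5 and 12.6 in dhh1-delta. With protein-coding factors RPL11B was called higher (0.33). Both pairs are among those with the most shared sequence.

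RPL8 and RPL26, whose copies share few words, moved toward A. The RPL8 ratio was -1.37 and -1.30 in WT and -0.52 and -0.65 in dhh1-delta, a difference of 0.74 (standard error 0.10, limma-trend adjusted p = 0.000179). In the dbp1-delta-labelled libraries it stood between, at -1.06 and -1.04. The RPL26 ratio was -1.82 and -1.71 in WT and -1.14 and -1.01 in dhh1-delta, a difference of 0.69 (standard error 0.10, limma-trend adjusted p = 0.000269). It was also higher in the ski2-delta-labelled libraries, at -1.32 and -1.31 (difference 0.45), and in the dbp1-delta-labelled ones, at -1.36 and -1.41 (difference 0.38), so that this shift was not confined to dhh1-delta. Both differences passed, but not without WT replicate 1 or without the second library of either label.

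RPL27, RPL14 and RPL23 completed the 5 pairs with the largest difference relative to the spread of their replicates. RPL27 went from ratios of 0.57 and 0.64 to 0.03 and 0.02, a difference of -0.58 (standard error 0.09, limma-trend adjusted p = 0.000562). Neither copy was called alone on the deposited scale. RPL14 went from 1.33 and 1.37 to 0.82 and 0.71, a difference of -0.59 (standard error 0.09, limma-trend adjusted p = 0.000615). RPL23 went from -0.45 and -0.43 to -0.11 and -0.14, a small difference of 0.32 in a pair whose replicates differed by at most 0.03. In all 3 pairs the dhh1-delta libraries lay outside the range of the 10 others. With coding introns left out of the length, the summed density of these families changed by -0.11, -0.12 and -0.22, against a median of -0.20 over the 25 families.

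Of the other 6 pairs called, RPL9 (-0.62), RPL15 (-0.52), RPL7 (-0.41) and RPL22 (-0.38) moved toward the weaker B copy, and RPL17 (0.42) and RPL24 (0.35) toward the stronger A copy. The calls for RPL22 and RPL24 were lost without WT replicate 1 or either dhh1-delta library, that for RPL15 without WT replicate 2 or dhh1-delta replicate 2, that for RPL23 without either dhh1-delta library and that for RPL17 without dhh1-delta replicate 1. In the dbp1-delta-labelled libraries, the RPL22 ratio (-0.55) and the RPL7 ratio (-0.28) also passed, and no pair did without WT replicate 1 or without the second library, nor RPL7 without any 1 of the 4. In dhh1-delta the copy that led in the other deletions lost ground in 16 of 25 pairs, and the same count, with the leading copy set without the strain compared, was 15 in ecm32-delta, 14 in slh1-delta, 19 in the ski2-delta-labelled libraries and 18 in the dbp1-delta-labelled ones. Pairs with small differences in dhh1-delta included RPL1 (-0.15 and -0.17), RPL20 (-0.15 and -0.17) and RPL19 (-0.60 and -0.63), which differed from WT by less than 0.05. Both RPL19 copies were called lower.

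**Figure D3:**
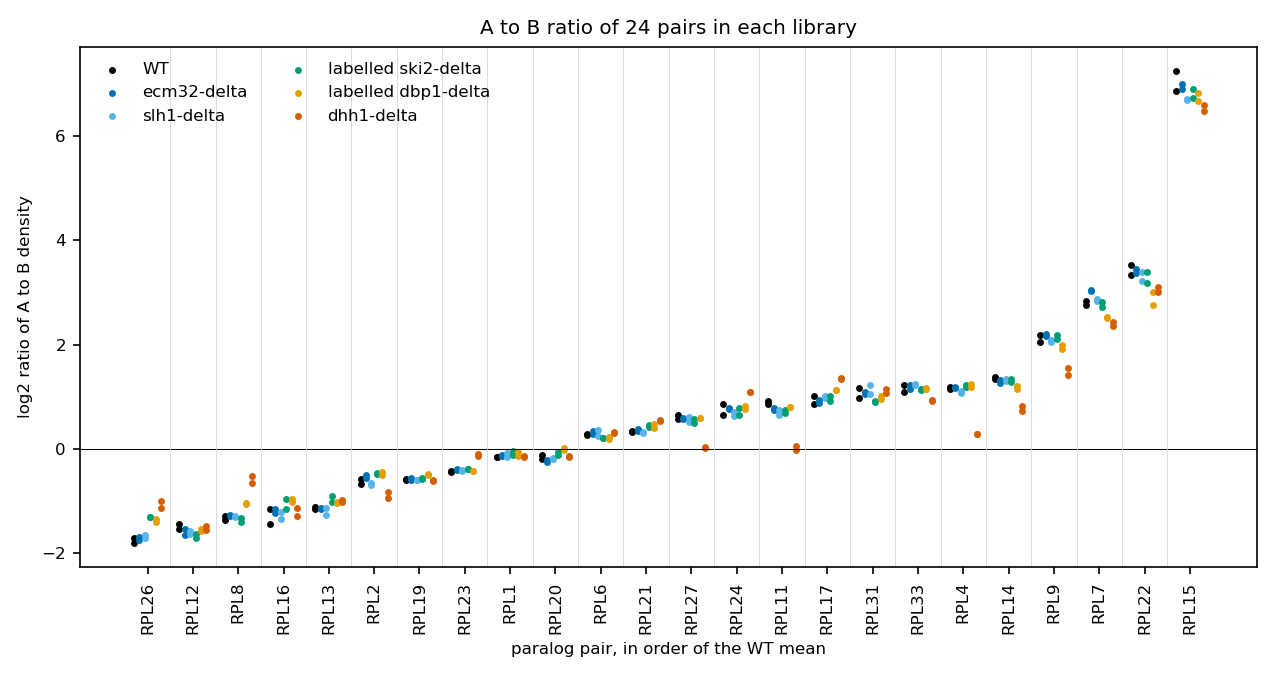
Log2 ratio of the A to the B density of 24 of the pairs in each library, 1 dot per library coloured by strain, pairs in order of the WT mean. Among the pairs where the dhh1-delta dots leave the others are RPL4, RPL11, RPL27, RPL14, RPL9 and RPL7 (downward) and RPL8, RPL26, RPL23, RPL17 and RPL24 (upward). At RPL1 and RPL19 the dots stay together.

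**Figure D4:**
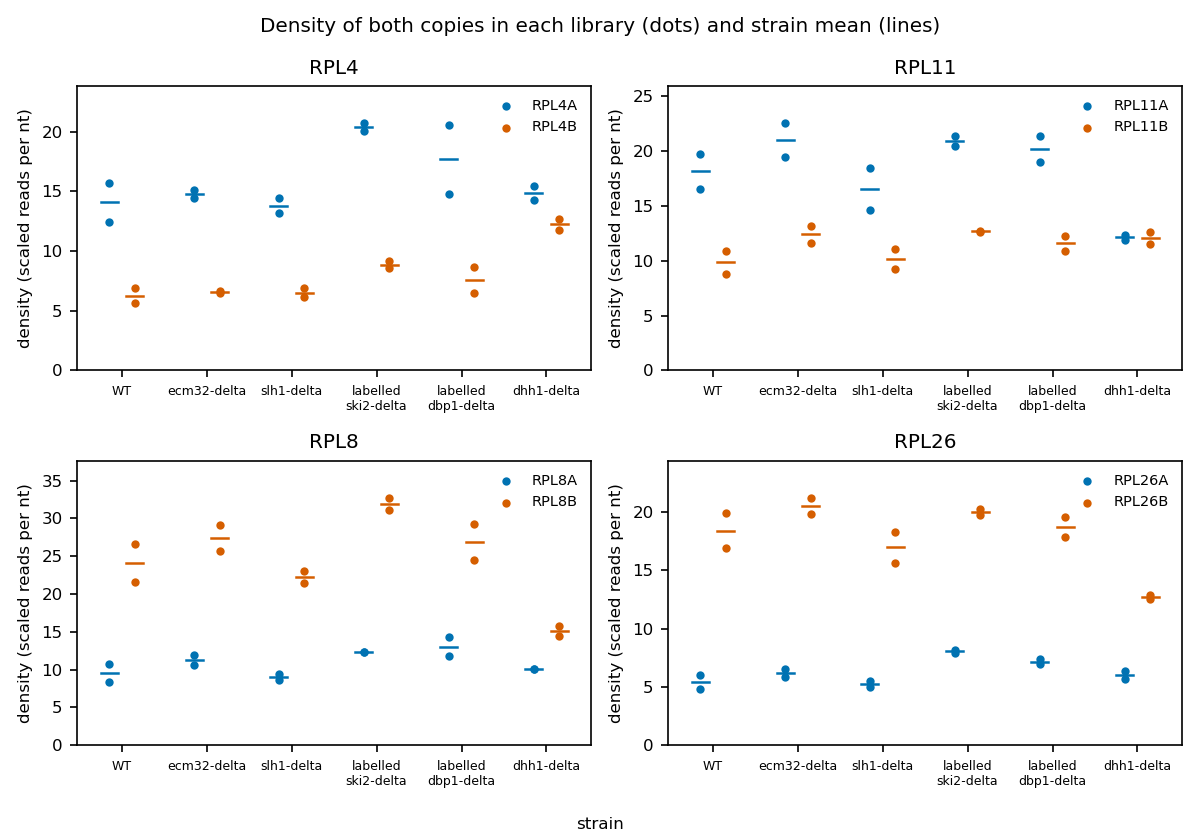
Deposited density (scaled reads per nucleotide) of the A copy (blue) and the B copy (orange) of RPL4, RPL11, RPL8 and RPL26 in each library, dots for libraries and lines for strain means of 2. In dhh1-delta RPL4B is raised to 12.7 and 11.8, RPL11A falls to 11.9 and 12.4, level with RPL11B, and RPL8B and RPL26B fall toward their A copies.

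Against the other deletions the ratios differed in 15 pairs for ecm32-delta, 12 for slh1-delta, 11 for the ski2-delta-labelled libraries and 11 for the dbp1-delta-labelled ones. Of the pairs of other ribosomal proteins 58.8, 58.8, 58.8 and 41.2% were called, in a joint fit that called 12 of the 25 for the ski2-delta label and the same counts for the others. RPL4, RPL8, RPL9, RPL11, RPL14, RPL23, RPL24 and RPL27 passed in all 4. RPL26 did not pass against the ski2-delta-labelled libraries (0.23, adjusted p = 0.0528).

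The rest of the ribosome and its helpers were listed with earlier results of these data known. In dhh1-delta, where 13.7% of features rose and 24.3% fell, 2 of 23 other large subunit genes rose and 1 fell, with a median of -0.10; RPL43B (0.50, adjusted p = 0.00336) and RPL37A (0.48, adjusted p = 0.0133) rose and RPL34B (-0.48, adjusted p = 0.0172) fell in limma-trend. Of 57 small subunit genes 3 rose and 11 fell, with a median of -0.16. RPS9A (0.67, adjusted p = 0.00121) and RPS1B (-0.60, adjusted p = 0.00574) had the largest changes in either direction, and RPS9B (-0.53, adjusted p = 0.0152) fell where its partner rose. Of 5 dedicated chaperones of large subunit proteins 3 fell, with a median of -0.40: SYO1 (-0.62, adjusted p = 0.00666), which carries Rpl5 and Rpl11, ACL4 (-0.41, adjusted p = 0.0302), the chaperone of Rpl4, and RRB1 (-0.40, adjusted p = 0.0213), that of Rpl3. Of 12 transcription regulators 2 fell, the activator IFH1 (-0.46, adjusted p = 0.0167) and the repressor TOD6 (-0.79, adjusted p = 0.00528), with a median of 0.06. With protein-coding factors 2 rose and 3 fell among the other large subunit genes, 8 and 17 among the small subunit genes, 0 and 5 among the chaperones and 2 and 2 among the regulators, where 18.3% of features rose and 28.9% fell. In ecm32-delta and slh1-delta none of these 4 lists had a call. In the ski2-delta-labelled libraries 5 of 23, 16 of 57, 5 of 5 and 11 of 12 rose, and in the dbp1-delta-labelled ones 2, 3, 0 and 5, on the deposited scale where 39.3 and 17.2% of all features were called higher. With protein-coding factors none of these was called in either of those sets of libraries.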

How the data were processed

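RNA-seq of 12 libraries was analysed from a single table of signal, in which the deposited values are normalized densities per feature. Build R64 and the tools HISAT2 2.2.0, DESeq2, Trim Galore and featureCounts 2.0.0 appear in the submitters' processing notes without role or order. The values are whole multiples (within 0.001 reads, for 100% of 124137 values above 0) of a step per library; since each feature's length was searched for, this rests partly on the search. The steps match median-ratio factors over 76 snoRNAs within 0.558%, against 27.1% for protein-coding genes and 49.6% for spike-ins. Counted lengths exceed the annotated length in 57 of 58 members and include introns. The 6 columns of strain means were not used.

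In R 4.3.3, limma 3.58.1 with a trended prior (limma-trend) tested log2(density + 0.005076), the pseudocount being the 10th percentile of values above 0, for the 9497 features with a higher mean, spike-ins excluded. All 58 members passed this filter. All 12 libraries entered a single model without a block (6 residual degrees of freedom, prior 5.75), and p-values were adjusted by Benjamini-Hochberg over all features, with a threshold of 0.05. Fold changes are on the log2(density + pseudocount) scale. Because the densities are no counts, voom on the recovered reads served only as an alternative. Sequence work used the R64 reference, Biopython 1.88 and Python 3.11.15. The methods were tested on simulated data. Those reads were scaled by known library totals, so the test does not cover the choice of scaling. They were drawn independently for each feature and library, so it does not cover genes that move together between replicates either.

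The members and lists were chosen with earlier results of these data known. The text names the 10 highest and 5 lowest members in WT, up to 5 higher and 5 lower called members per comparison (3 with the smallest p where none passed), the single-copy genes, and the pairs with the 5 largest, 5 smallest and 5 most changed ratios relative to replicates. Up to 3 genes per other list with the largest called change are named. The remaining called members and pairs of dhh1-delta, the pairs with small differences there and the upstream windows were chosen after their values were seen. One member that this rule would name, and its pair, are not reported here by name. Alternatives were other scalings, pseudocounts, filters, a replicate block and leaving out each library. P-values reflect the spread between 2 libraries a strain.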

Additional observations from a re-analysis of the deposited data

How the results depend on the processing

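On the deposited scale, the alternatives moved the number of members called by over 1.5 times in the ski2-delta-labelled libraries (19) to 0 with protein-coding, spike-in or quantile scaling, with spike-in factors and no WT replicate 1, or with only the 2 strains in the fit. In the dbp1-delta-labelled ones (4) the number was 2 with protein-coding factors, 0 with spike-in factors (with or without WT replicate 1), 1 with quantile scaling or only the 2 strains, 2 with no filter and 7 with a stricter filter. In dhh1-delta (11) it was 25, 0 and 35 with protein-coding, spike-in and quantile scaling and 4 with spike-in factors and no WT replicate 1. Leaving out 1 library gave 0 to 31, 0 to 9 and 3 to 17 members, and 0 to 2, 0 to 3 and 9 to 12 pairs in these strains, and 0 for members and pairs in ecm32-delta and slh1-delta. Against dhh1-delta, protein-coding factors gave 31 members for slh1-delta, 17 for the ski2-delta-labelled libraries and 19 for the dbp1-delta-labelled ones, in place of 8, 44 and 36.

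With spike-in factors the sign turned for RPL27B in ecm32-delta (-0.024), for RPL15B in slh1-delta (-0.027), for RPL26A (-0.19), RPL4A (-0.22), RPL16A (-0.24), RPL15B (-0.24) and RPL4B (-0.26) in the ski2-delta-labelled libraries, and for RPL7B (-0.091), RPL8A (-0.10) and RPL26A (-0.14) in the dbp1-delta-labelled ones; the cause was not tested. Among the 11 members and 13 pairs called in dhh1-delta, none changed sign under any alternative run. With a replicate block 24, 4 and 16 members and 1, 2 and 13 pairs were called in the ski2-delta-labelled libraries, the dbp1-delta-labelled ones and dhh1-delta. Whether the replicate numbers pair the samples was not settled. Over 15 pairs of strains, deviations of same-numbered libraries correlated across features by -0.08 to 0.07. Such a correlation cannot show a shift shared by a whole library. Of the 58 members, 54 were higher in replicate 2 in WT, 58 in slh1-delta and 45 in dhh1-delta. The counts were 46 and 58 in the ski2-delta- and dbp1-delta-labelled libraries, but 2 in ecm32-delta. Every member had at least 190 reads in every library.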
